A study of Mus musculus with 14 samples.

Results

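Red blood cells reach a tumor with its blood, and their transcripts are sequenced together with those of the tumor. The transcripts described are 8 erythroid genes among the 53801 genes quantified in CT26 tumors: the adult alpha globins Hba-a1 and Hba-a2, the adult beta globins Hbb-bs and Hbb-bt, and Alas2, Slc4a1, Epb42, and Bpgm. They were picked by name, after the difference between responders and non-responders in Hbb-bs and its neighbours had been seen in these tumors. That comparison is therefore a description here, with no test for the 8 genes. The comparisons with control IgG tumors carry a test, but they share the responder or non-responder tumors with it and are not independent of the choice.

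Adult hemoglobin is made of alpha and beta globin chains around heme. Globin mRNA is made in erythroid precursors of marrow and spleen and persists in reticulocytes, the young red cells of the blood, so that globin reads in a solid tissue are commonly read as its blood content. Alas2 is the first enzyme of heme synthesis in erythroid cells, Slc4a1 is the band 3 anion exchanger of the red cell membrane, and Epb42 is a protein of its skeleton. Bpgm makes 2,3-bisphosphoglycerate, which lowers the oxygen affinity of hemoglobin, and unlike the others it is also expressed in many other cells.

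CT26 is a Balb/c colon carcinoma line, and its cells had been barcoded with the ClonTracer library. Female Balb/c mice of 6 to 8 weeks received 250000 cells under the skin of each flank. Control IgG or anti-PD-1 was given at 200 μg from day 7, every 3 days for 5 doses, and tumors were taken 3 days after the last dose. The 14 tumors came from 11 mice: 5 control IgG tumors from 4 mice (14L, 14R, 16R, 17R, and 20R), 5 responders to anti-PD-1 from 4 mice (24L, 26R, 30L, 30R, and 35L), and 4 non-responders to it, from 3 mice (29L, 32R, 33L, and 33R). The numbers name the mouse and L or R the flank. Response was defined in the study by the final size of a tumor relative to control IgG tumors, so the 2 anti-PD-1 groups differ in size by construction, and no perfusion of the mice was described. Tumors of one mouse were counted as separate samples, and p-values measure the spread between tumors.

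Expression was measured by RNA-seq of libraries selected with oligo(dT). The totals of the expected counts, which are RSEM's estimates of fragments per gene, were between 33237744 and 48481461 per tumor. CPM values are these counts scaled to library size after TMM normalization and serve to compare a gene between tumors, and TPM values are also divided by transcript length and serve to compare genes with each other. A count of 3 corresponded to 0.0619 to 0.0903 CPM. Tumors 14R and 33R stood apart in that counts, relative to each gene's mean over the tumors, fell with gene length. The fall was 0.32 and 1.01 on the log2 scale per 10-fold length. In the others the slope ran from -0.14, a fall, to 0.25, a rise. Results that rest on 14R and 33R are given without them. Skin keratin genes were nearly absent from 14R, 26R, and 30L (8.35, 34.4, and 14.2 summed CPM of 10 epidermis genes, against 145.5 to 1035 in the other tumors). Markers of colon epithelium were low in all tumors, with 11.3 to 46.9 summed CPM over 6 genes and a mean of 0.0593 TPM for Vil1. Of 5 such genes tested, the intestinal factor Cdx2 alone passed in a comparison, lower in responders than in control IgG tumors by a log2 fold change of -1.97 (adjusted p = 0.0303 in edgeR), and this call was lost without any one of 14R, 16R, 20R, 24L, 26R, 30R, or 35L, with an adjusted p of up to 0.0834.

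The 2 alpha globin genes and the 2 beta globin genes are near copies. In mm10, Hba-a1 (chr11:32283511-32284465) and Hba-a2 (chr11:32296489-32297298) lie side by side on the plus strand, and Hbb-bs (chr7:103826534-103828096) and Hbb-bt (chr7:103812524-103813996) on the minus strand. The coding sequences of each pair differ at 1 base, which is why the reads of a pair are hard to divide. In the GENCODE transcripts this base is C381T from Hba-a1 to Hba-a2, of 429 coding bases, and C417T from Hbb-bs to Hbb-bt, of 444, counted from 1 at the first base of the start codon. The 41 coding bases around it are shown, with the differing base in capitals.
Hba-a1: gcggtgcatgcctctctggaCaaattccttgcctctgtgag
Hba-a2: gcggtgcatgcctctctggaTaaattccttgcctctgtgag
Hbb-bs: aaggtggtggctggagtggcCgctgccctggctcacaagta
Hbb-bt: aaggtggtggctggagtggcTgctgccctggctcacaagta
Because of this identity, 48.4% of the 150-base windows of the Hba-a1 transcript also occur in Hba-a2, and 65.7% of those of Hba-a2 occur in Hba-a1. For the beta globins the shares are 58.7% of Hbb-bs and 50.7% of Hbb-bt. RSEM divides such fragments by estimation, so the level of a single paralog is uncertain. With each pair summed to 1 feature, responders were lower than control IgG tumors by a log2 fold change of -2.26 for the beta globins (adjusted p = 0.0399 in edgeR), and the summed alpha globins did not pass. The reference is of C57BL/6J mice, which carry another haplotype of the beta globin locus than Balb/c mice. The difference of 1 base between Hbb-bs and Hbb-bt is that of the reference. Levels and shares of Hbb-bs and Hbb-bt thus describe how beta globin reads fell on this reference, and not levels of these genes in Balb/c mice.

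The sequences before the start of these genes show what the globins and Alas2 have in common. The 250 bases upstream of the start of the RefSeq transcript are given from RefSeq (GRCm38.p6, the assembly of mm10) for 3 globins and Alas2. RefSeq's start lies further into the gene than the outermost GENCODE transcript end that bounds the positions above, so the windows overlap these positions in part. Capitals mark GATAA (the core of sites bound by GATA factors), CACCC (bound by Klf1 and related factors), CCAAT, and TATAA, searched on both strands, so that their reverse complements are also in capitals. In Hbb-bt a CCAAT and its reverse complement touch. In Alas2 the TATAA matches of the 2 strands overlap, and 3 CACCC matches on the reverse strand follow each other without a gap.
Hba-a1, chr11:32283422-32283671, plus strand: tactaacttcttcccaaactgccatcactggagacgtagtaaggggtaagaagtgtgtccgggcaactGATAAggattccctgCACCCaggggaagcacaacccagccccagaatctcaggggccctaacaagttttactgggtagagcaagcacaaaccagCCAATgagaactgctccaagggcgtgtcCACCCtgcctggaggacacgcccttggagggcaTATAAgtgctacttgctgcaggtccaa
Hbb-bs, chr7:103827929-103828178, minus strand: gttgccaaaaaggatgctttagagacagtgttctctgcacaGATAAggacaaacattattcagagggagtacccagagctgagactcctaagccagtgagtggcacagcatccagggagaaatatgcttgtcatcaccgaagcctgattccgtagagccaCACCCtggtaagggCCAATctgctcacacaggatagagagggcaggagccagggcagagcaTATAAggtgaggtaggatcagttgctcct
Hbb-bt, chr7:103813924-103814173, minus strand: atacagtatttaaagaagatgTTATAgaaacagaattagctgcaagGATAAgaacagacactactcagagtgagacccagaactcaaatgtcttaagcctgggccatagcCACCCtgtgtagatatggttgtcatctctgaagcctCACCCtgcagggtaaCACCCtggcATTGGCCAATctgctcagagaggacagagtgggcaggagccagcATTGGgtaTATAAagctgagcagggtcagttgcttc
Alas2, chrX:150547167-150547416, plus strand: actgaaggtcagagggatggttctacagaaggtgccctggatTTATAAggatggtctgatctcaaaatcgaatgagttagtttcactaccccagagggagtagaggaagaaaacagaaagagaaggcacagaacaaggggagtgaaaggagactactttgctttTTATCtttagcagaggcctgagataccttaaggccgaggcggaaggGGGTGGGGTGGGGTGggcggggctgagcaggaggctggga
The window of Hba-a2 (chr11:32296242-32296491) is the same sequence shifted by 3 bases, with 247 of 247 bases identical. Each of the 4 adult globin windows held all 4 motifs, which 0.968% of the 32851 RefSeq windows of this length did. Alone, GATAA was found in 22.6% of the windows, CACCC in 52.0%, CCAAT in 33.8%, and TATAA in 22.8%. The window of Alas2 (on chromosome X) held 3 of the motifs and no CCAAT. The window of Epb42 held GATAA and TATAA, and that of Bpgm held CCAAT only. These matches describe letters in a window and not binding.

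The adult globins had the highest mean levels of the 8 genes per length. Mean levels over 14 tumors were 1027 TPM for Hbb-bs, 629.5 TPM for Hba-a2, 300.3 TPM for Hba-a1, and 31.8 TPM for Hbb-bt. In each of the 14 tumors the order of these 4 genes was the same, although the division of shared reads bears on it. Bpgm (6.80 TPM) and Alas2 (5.66 TPM) came next. Neither step was seen in every tumor, since Hbb-bt was above Bpgm in 12 of 14 tumors, not in 14L and 24L, and Bpgm above Alas2 in 11. Slc4a1 was at 0.0986 TPM, and Epb42 at 0.0279 TPM. Together the 4 globins took 0.00603% to 0.197% of all counts of a tumor, with a median of 0.0396%.

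Hbb-bs, the major beta globin in the files, varied widely between tumors. In control IgG tumors it was at 41.0 CPM in 14L, 251.8 in 14R, 1021 in 16R, 347.2 in 17R, and 260.8 in 20R. In responders it was at 26.7 CPM in 24L, 103.4 in 26R, 50.7 in 30L, 77.8 in 30R, and 141.1 in 35L. In non-responders it was at 399.9 CPM in 29L, 1033 in 32R, 193.8 in 33L, and 607.5 in 33R. All 4 non-responders were above all 5 responders, and control tumors spanned nearly the whole range, with 14L below 4 of the 5 responders. The highest tumor, 32R, had 38.7 times the CPM of the lowest, 24L.

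Hba-a2 had the same pattern and a wider range, with 49.5 times the CPM in the highest tumor as in the lowest. Its levels were 11.4, 73.6, 487.5, 168.7, and 129.6 CPM in the control IgG tumors in the order above. The responders had 16.4, 44.5, 29.1, 42.2, and 76.3 CPM, and the non-responders 212.6, 565.1, 100.2, and 235.3 CPM. Control tumor 14L was here the lowest of all 14 tumors. Hba-a1 ranged from 16.2 to 333.8 CPM among control IgG tumors with a median of 99.6, from 13.9 to 55.3 CPM among responders with a median of 31.1, and from 69.1 to 394.8 CPM among non-responders with a median of 159.1. Hbb-bt, the minor beta globin in the files, ranged from 1.62 to 40.1 CPM (median 9.39), from 1.32 to 5.40 (median 2.62), and from 6.97 to 42.5 (median 16.7) in the same groups.

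Alas2 had the pattern of the globins at much lower levels. It was at 1.14, 4.65, 26.9, 9.09, and 9.05 CPM in control IgG tumors, at 0.994, 3.61, 1.06, 2.78, and 4.51 CPM in responders, and at 11.8, 29.7, 5.58, and 10.9 CPM in non-responders. The counts behind these values were 40 to 1284. Again all 4 non-responders were above all 5 responders, and 14L was close to the lowest responders.

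The genes of the red cell membrane were near the limit of detection. Slc4a1 had 0 counts in 30L, 1 in 30R, and at most 42, in 32R. In CPM the control IgG tumors had 0.142 to 0.552, the responders 0 to 0.233, and the non-responders 0.113 to 0.972, and the groups overlapped. Epb42 had between 0 and 4 counts in any tumor, did not pass the filter on low counts, and was not tested. No statement on a difference of Epb42 is possible at this depth. Of the other 7 genes, all passed the filter and entered the fits.

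Bpgm varied little by comparison. It was at 9.20, 10.9, 13.9, 9.98, and 11.7 CPM in control IgG tumors, at 7.31, 8.77, 7.71, 8.80, and 9.52 CPM in responders, and at 10.7, 14.2, 10.2, and 12.3 CPM in non-responders. On the CPM scale the 2 anti-PD-1 groups did not overlap. On the TPM scale they did, since responders had 5.65 to 6.52 TPM and non-responders 5.45 to 7.90 TPM, with the lowest value in 33R. The other 5 genes without overlap in CPM, the 4 globins and Alas2, did not overlap in TPM either.

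**Figure D1:**
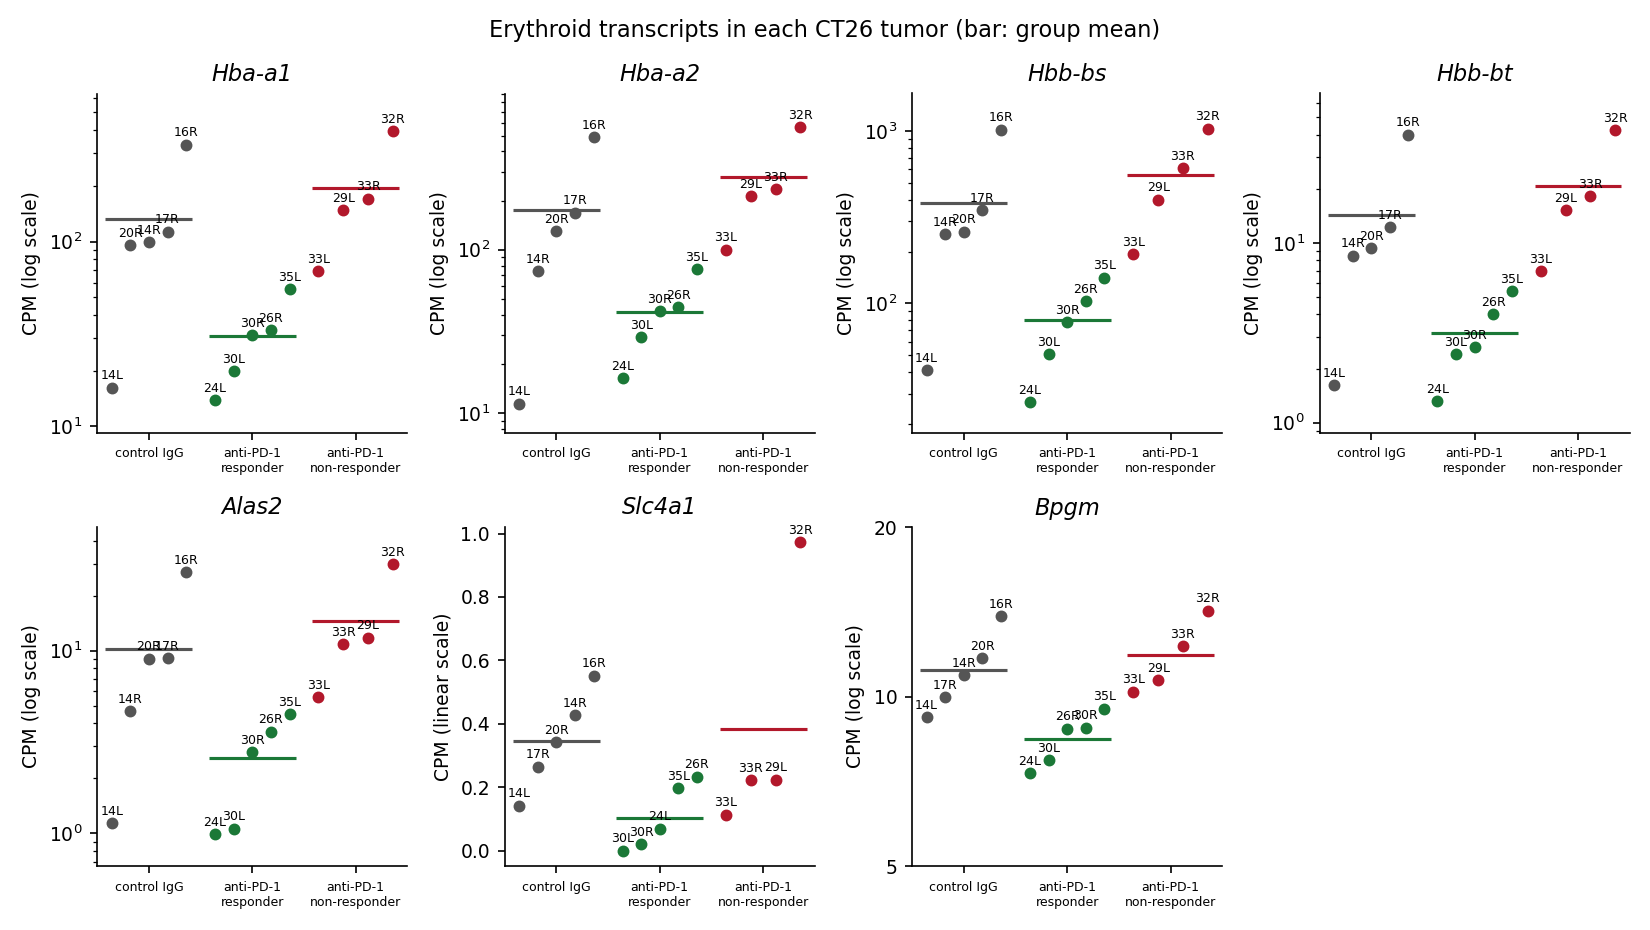
CPM of 7 of the 8 genes in each tumor by group, on log axes except for Slc4a1, with points labelled by tumor and bars at the group means. For the globins and Alas2 every non-responder lies above every responder, while control IgG tumors run from the low tumor 14L to the high tumor 16R.

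The spread of the globins was large against that of other genes. The SD of log2 CPM over 14 tumors was 1.54 to 1.7 for the 4 globins and 1.57 for Alas2, against a median of 0.266 over the 16287 genes tested, and 1.09% to 1.56% of all genes had a larger SD than these. For Bpgm the SD was 0.287, and 45.6% of genes had a larger one.

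Responders and non-responders were compared first as the contrast on which the genes were chosen. The mean of Hbb-bs was 79.9 CPM ± 44.7 (SD, n = 5) in responders and 558.6 CPM ± 358.8 (SD, n = 4) in non-responders, and the fitted log2 fold change was -2.80 ± 0.71 (SE), a 6.99-fold lower level. Hba-a1 was 6.38-fold lower, Hba-a2 6.68-fold, Hbb-bt 6.58-fold, and Alas2 5.60-fold lower in responders. Slc4a1 was 3.77-fold lower, with overlap, and Bpgm 1.41-fold lower. The value of Bpgm did not hold on the TPM scale, where the log2 fold change on log2(TPM + 1) was -0.11, against -0.50 in the fit. For Slc4a1 it was -0.0045, against -1.91. With Slc4a1 at 0.0986 TPM on average, the added 1 leaves almost no difference to show, so this value cannot decide. On log2(TPM + 0.1) the log2 fold change of Slc4a1 was also small, at -0.15. The mean TPM of Slc4a1 was 0.094 in responders, where 35L had 0.37, and 0.0925 in non-responders. The 0.37 TPM of 35L rested on 9 counts, while 32R had 0.24 TPM on 42 counts. The reason for this was not tested. Without 32R the fitted log2 fold change of Slc4a1 was -0.86. The median log2 fold change was -2.73 over the 4 globins, against 0.01 over all genes tested. Of the 7 genes in the fit, all but Slc4a1 had no overlap in CPM between these groups, which is 6 genes. Of all genes tested 12.8% had none, and nothing is read from this count because this contrast chose the genes.

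In responders against control IgG tumors, 3 globins were lower. Hbb-bs fell by 2.26 on the log2 scale (SE 0.68), from 384.4 CPM ± 373.3 (SD, n = 5) in control IgG tumors, with an adjusted p of 0.0399 in edgeR's quasi-likelihood test with Benjamini-Hochberg adjustment over all genes. Hba-a1 fell by 2.10 (SE 0.63, adjusted p = 0.0417 in edgeR) and Hbb-bt fell by 2.19 (SE 0.68, adjusted p = 0.0458 in edgeR). The log2 fold changes of the other 4 tested genes were of the same sign and did not pass: -2.06 for Hba-a2 (adjusted p = 0.0751), -1.97 for Alas2 (0.0724), -1.75 for Slc4a1 (0.136), and -0.40 for Bpgm (0.0521). Of the 7 genes tested 3 thus passed, against 13.2% of all genes tested. Nothing is read from this count, because the contrast that chose the genes holds the same responders. Hbb-bs and Hbb-bt also divide shared reads, and with the paralogs summed 1 feature passed. None of the 7 was without overlap between these groups, against 15.1% of all genes, because control tumor 14L lay within or below the range of the responders for the globins and Alas2.

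This call rested on single tumors. Without 14L, 6 of the genes passed, and without any one of 16R, 17R, 20R, 24L, 26R, 30L, or 30R none did. No gene passed with 1 tumor per mouse, with limma-voom, or on the TPM scale, and 6 passed with DESeq2. With 14R and 33R left out 3 passed.

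No gene passed in non-responders against control IgG tumors. The log2 fold changes of the 7 genes were between 0.09 for Bpgm and 0.68 for Hba-a2, with standard errors of 0.64 to 0.74 for all but Bpgm (0.14), and adjusted p-values in edgeR of 0.931 or higher. None passed, against 0.0% of all genes tested. At an unadjusted p under 0.05, 758 of 16287 genes and none of the 7 passed in edgeR, and DESeq2 called 16 genes and none of the 7. Without 32R the fitted values of Hba-a1, Hbb-bt, Alas2, Slc4a1, and Bpgm turned to the other sign.

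**Figure D2:**
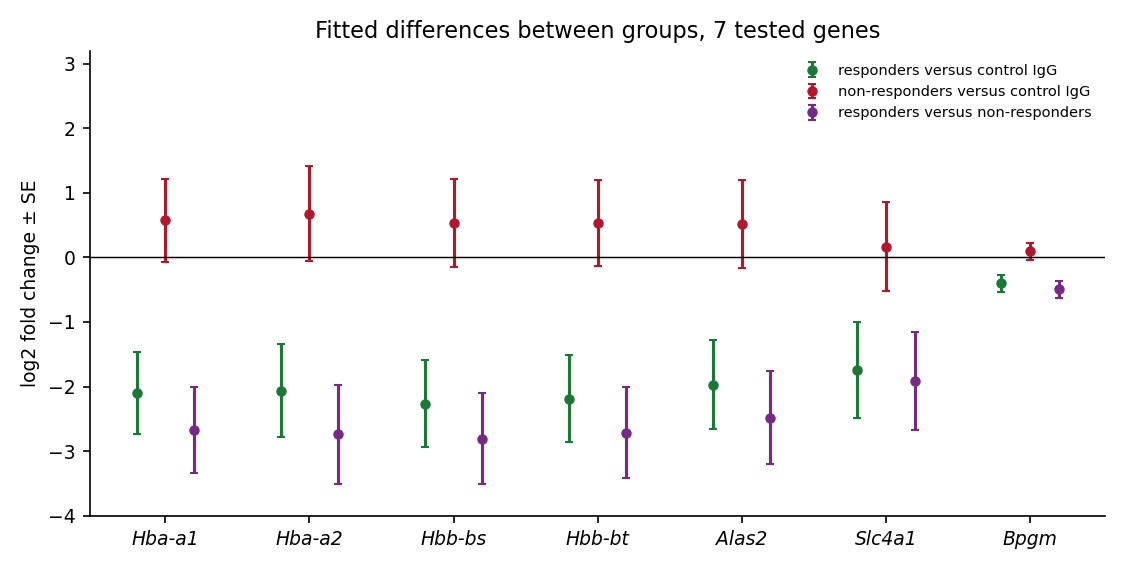
Fitted log2 fold change with its SE for the 7 tested genes in each of the 3 comparisons, a value below 0 meaning a lower level in the group named first. The globins lie between -2.06 and -2.80 in both comparisons that involve responders and between 0.53 and 0.68 for non-responders against control IgG tumors.

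The genes rose and fell together across tumors. Pearson's r of log2 CPM with the log2 summed CPM of the 4 adult globins, over 14 tumors, was 0.984 for Alas2 (Spearman's rho 0.987), 0.932 for Bpgm (rho 0.921), and 0.777 for Slc4a1 (rho 0.780). For Epb42, with at most 4 counts, r was 0.736 (rho 0.695), and such sparse counts give no finding. These values are a description with no test, because the genes were chosen on a difference between groups of the same tumors, which enters r.

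The relations were computed again without extreme tumors and within groups. Without 14L and 24L, the tumors farthest from the median of the summed globins, r was 0.975 for Alas2, 0.956 for Bpgm, and 0.833 for Slc4a1. After the group means had been subtracted, r was 0.972, 0.882, and 0.674 in the same order. On log2(TPM + 1) r was lower for Bpgm and Slc4a1, at 0.576 and 0.513. Slc4a1 had at most 0.37 TPM, so the added 1 compresses its differences on this scale. Bpgm also changed much less than the globins, with a slope of 0.163 on the log2 scale per unit of log2 summed globins, against 0.942 for Alas2.

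**Figure D3:**
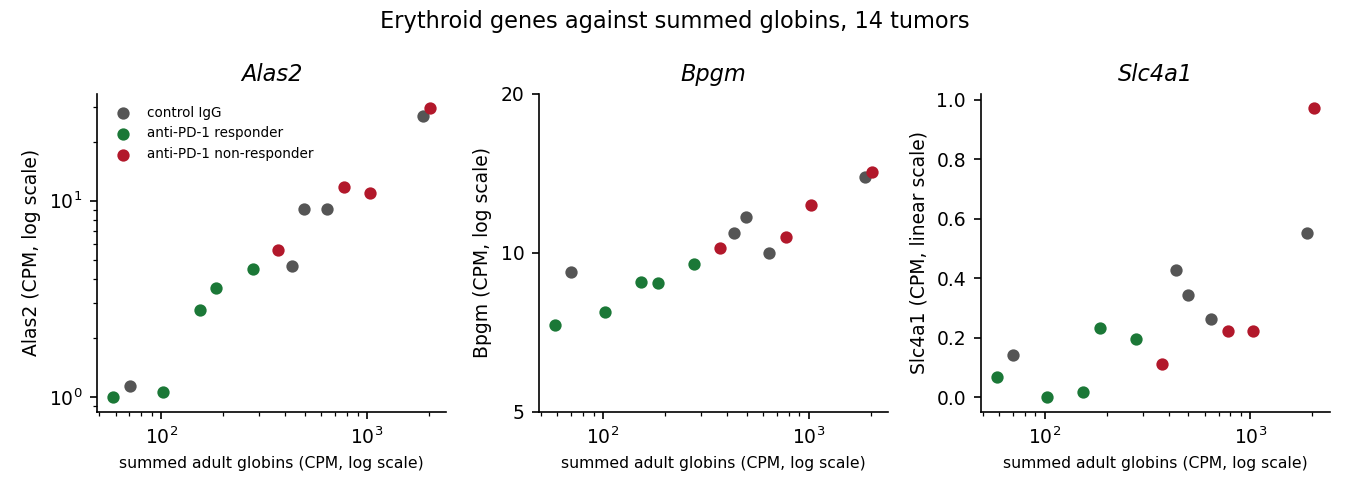
CPM of Alas2, Bpgm, and Slc4a1 against the summed CPM of the 4 adult globins (log axis) in 14 tumors, colored by group. Alas2 rises with the globins over the whole range, while Bpgm only moves from 7.31 to 14.2 CPM.

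Pearson's r with the summed globins over the same 14 tumors was also computed for all other genes tested. Among the 10 with the highest r were Atad3a (0.916), Pex14 (0.905), Gpn2 (0.897), Tomm40 (0.896), Mri1 (0.890), Zfp787 (0.875), Bckdha (0.871), and Gorasp2 (0.869). These 8 genes varied little between tumors, with SDs of log2 CPM of 0.078 to 0.224 and levels of 14.9 to 137 CPM. The points share library depth and group, and 489 of 16287 genes had r above 0.7 and 618 below -0.7.

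Of 57 other erythroid genes in 5 lists, 54 were in the files and 39 had enough counts to be tested. In responders against control IgG tumors 1 was lower and none higher, against 13.2% of all genes called, and without 14R and 33R 6 were called. In responders against non-responders 1 was lower and 1 higher, against 9.9% of all genes called, while 1 was called without 14R and 33R and 6 on the TPM scale. In non-responders against control IgG tumors none passed. The median log2 fold change over the 39 genes was 0.03, -0.06, and 0.09 in these comparisons in the order given, against -0.01, 0.01, and 0.01 over all genes tested.

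Heme synthesis and iron import had 12 tested genes. Only Cpox, the coproporphyrinogen oxidase of all heme-making cells, was lower in responders, with a log2 fold change of -0.40 against control IgG tumors (adjusted p = 0.00792 in edgeR) and -0.41 against non-responders (adjusted p = 0.0166 in edgeR). Cpox is expressed at 43.6 to 74.2 CPM, and its r with the globins was 0.742, or 0.482 with group means removed. Both calls were lost on the TPM scale, where the log2 fold changes were -0.26 and -0.15, and the second also without 32R (adjusted p = 0.0509 in edgeR). Alas1, the housekeeping counterpart of Alas2, had log2 fold changes of 0.09 and 0.14 in the same comparisons (adjusted p = 0.407 and 0.217 in edgeR). None of the 12 tested red cell membrane genes passed in any comparison, among them Aqp1 (342 TPM on average), Epb41 (16.0 TPM), and Gypc (4.76 TPM). Among 8 tested red cell enzymes and other genes, Cat, the catalase of many tissues, had a higher level in responders, by 0.30 above non-responders on the log2 scale (adjusted p = 0.0487 in edgeR), and no other gene passed. The call on Cat was lost without any one tumor of these groups other than 30L and 33L, with the adjusted p in edgeR going up to 0.121 without 30R, and it was 0.0785 without 14R and 33R.

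Transcripts of erythroid precursors were close to or under the limit of detection. Gata1, the erythroid master regulator that mast cells and megakaryocytes also express, had 4 to 13 counts per tumor, and Klf1, the factor that drives the beta globin gene, had 0 to 14. The membrane gene Rhag had 0 to 2 counts and the carbonic anhydrase Car1 0 to 2, so that no difference was detectable at this depth. Of the embryonic globins, Hbb-bh1 was tested and had 16 to 40 counts, with a log2 fold change of -0.53 between responders and non-responders (adjusted p = 0.27 in edgeR). It is 1 of 6 other globins found in the files, and the rest, such as Hbb-y with 0 to 25 counts and Hbq1b with a mean of 0.101 TPM, were not tested. Hbb-bs had between 1156 and 44637 counts in the same tumors. None of the 6 tested regulators and receptors passed, including the transferrin receptor Tfrc (21.4 TPM on average), Zfpm1, a cofactor of GATA factors (1.8 TPM), and the erythropoietin receptor Epor (0.951 TPM).

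Genes that clear hemoglobin and heme were also compared. Of 10 tested, Spic, the factor of macrophages that recycle red cells, was higher in responders than in control IgG tumors by 1.74 on the log2 scale (adjusted p = 0.0362 in edgeR), at 0.321 to 1.20 CPM against 0.128 to 0.341 CPM. The call on Spic was lost without any one of 14L, 14R, 17R, 20R, 24L, 30R, or 35L, with the adjusted p going up to 0.11, and at 0.0616 without 14R and 33R. Hmox1, the heme oxygenase, and Cd163, the hemoglobin scavenger receptor, had log2 fold changes of -0.07 and -0.59 (adjusted p = 0.882 and 0.14 in edgeR).

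Markers of other cells that arrive with blood were summed in each tumor. Over 14 tumors the summed CPM of 10 platelet genes had r of 0.266 with the globins (rho 0.182, permutation p = 0.358 and 0.532) and that of 10 neutrophil genes 0.0546 (rho -0.0637, p = 0.852 and 0.833, permutation tests). The platelet sum was mostly Pf4, with a mean of 25.5 CPM, against 3.57 for Itga2b and 1.38 for Ppbp. Its r thus mainly describes Pf4, whose own r was 0.271. None of 5 tested platelet genes, among them Pf4 (93.1 TPM on average), Itga2b (2.16 TPM), and Ppbp (1.98 TPM), passed in any comparison, and of 7 tested neutrophil genes Csf3r alone passed, higher in responders by 0.94 against control IgG tumors and 0.85 against non-responders on the log2 scale (adjusted p = 0.00305 and 0.0139 in edgeR). The median log2 fold change of the 7 neutrophil genes in responders was -0.344 against control IgG tumors and 0.0651 against non-responders. The most abundant, S100a9 (64.1 TPM on average) and S100a8 (37.7 TPM), did not pass and had the opposite sign to Csf3r. Their values were -0.69 and -0.85 against control IgG tumors, and -0.67 and -0.83 against non-responders. With 1 tumor per mouse 2 neutrophil genes passed against control IgG tumors and none against non-responders, where the log2 fold change of Csf3r was 0.73 (adjusted p = 0.0642 in edgeR). The summed CPM of the platelet list was 28.9 to 55.3 in control IgG tumors, 19.0 to 30.9 for responders, and 22.6 to 47.4 for non-responders, and that of the neutrophil list 25.3 to 69.5, 22.4 to 47.3, and 27.2 to 57.4. Ly6g, a defining neutrophil marker, and the platelet gene Gp6 were near 0 on average, at 0.0607 and 0.000714 TPM.

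Endothelial genes mark the vessels. The summed CPM of 10 such genes lay between 217.3 and 311.3 in control IgG tumors, between 328.8 and 400.3 in responders, and between 259.8 and 329.6 in non-responders. Emcn, Esam, and Plvap were higher in responders than in control IgG tumors by 0.40, 0.32, and 0.47 on the log2 scale (adjusted p = 0.0102, 0.0407, and 0.0088 in edgeR), which is 3 of 10, against 13.2% of all genes called. None of the 10 passed against non-responders in this fit. There 5 were called on log2(TPM + 1), 5 on log2(TPM + 0.1), 2 with mouse as a random effect, and 1 with DESeq2. Against control IgG tumors 2 to 6 were called over the alternatives other than the omission of single tumors. The call on Esam was lost without any one tumor other than 30L. Across the 14 tumors r with the globins was -0.433 (permutation p = 0.121) and rho -0.626 (permutation p = 0.0192), and with group means removed r was -0.0595. Adjusted over 8 relations, these permutation p-values were 0.193 and 0.0307. The 8 include those of the chosen genes Alas2, Slc4a1, Epb42, and Bpgm. Their small p-values lower the adjusted values of the other relations, so no call is read from these. The epidermis list had r of 0.191 (rho 0.0901, permutation p = 0.514 and 0.76), and none of its 10 genes passed, of which Krt14, Krtdap, and Krt10 were the most abundant (101, 69.7, and 46 TPM). The shared mice bore on this, since with 1 tumor per mouse 3 epidermis genes passed in responders against control IgG tumors, and with the tumors of a mouse averaged r was 0.663 (permutation test, adjusted p = 0.041). The part of these cell types in the difference of the globins was not tested. In bulk tissue, fewer red cells and less globin RNA per cell cannot be told apart.

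Ratios of the genes were also taken within each tumor. The share of Hba-a1 in the alpha globin counts was 58.6% in 14L and 57.5% in 14R, and 40.2% to 45.9% in the other 12 tumors (mean 41.8% ± 1.53, SD, n = 12). Both tumors of mouse 14 thus stood apart from all others, although 14L and 14R differed 6.17-fold in their summed globins. The globin sequences of the mice were not analysed here, so their part in the division between Hba-a1 and Hba-a2 in mouse 14 was not tested. The share of Hbb-bt in the beta globin counts ran from 2.92% to 4.69% over all tumors and did not set mouse 14 apart, whose tumors lay within the range of the others. Log2 of alpha over beta globin TPM was lowest in 14L and 14R as well, at -0.60 and -0.56, followed by 33R at -0.50, and between -0.35 and 0.20 in the other 11.

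No ratio passed a test between groups, but the design could hardly show one, since the smallest exact permutation p, 0.00794 for 5 against 5 tumors, does not pass alone after adjustment over 15 tests. In these two-sided exact permutation tests, of 5 ratios in 3 comparisons, the lowest adjusted p was 0.357. The lowest raw p, from an exact permutation test, was 0.0397 for alpha over beta globins in responders against control IgG tumors, a log2 difference of 0.318 (means -0.04 and -0.35, n = 5 each). Alas2 relative to the globins was at a log2 ratio of -8.32 ± 0.38 (SD, n = 5) in responders, -8.55 ± 0.27 (n = 4) in non-responders, and -8.30 ± 0.45 (n = 5) in control IgG tumors. The difference between responders and non-responders was 0.229 on the log2 scale (exact permutation p = 0.317, adjusted 0.526). Slc4a1 relative to the globins, computed with 0.01 TPM added to Slc4a1, rested on few counts and ran from -11.4 in 35L to -15.7 in 33R.

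**Figure D4:**
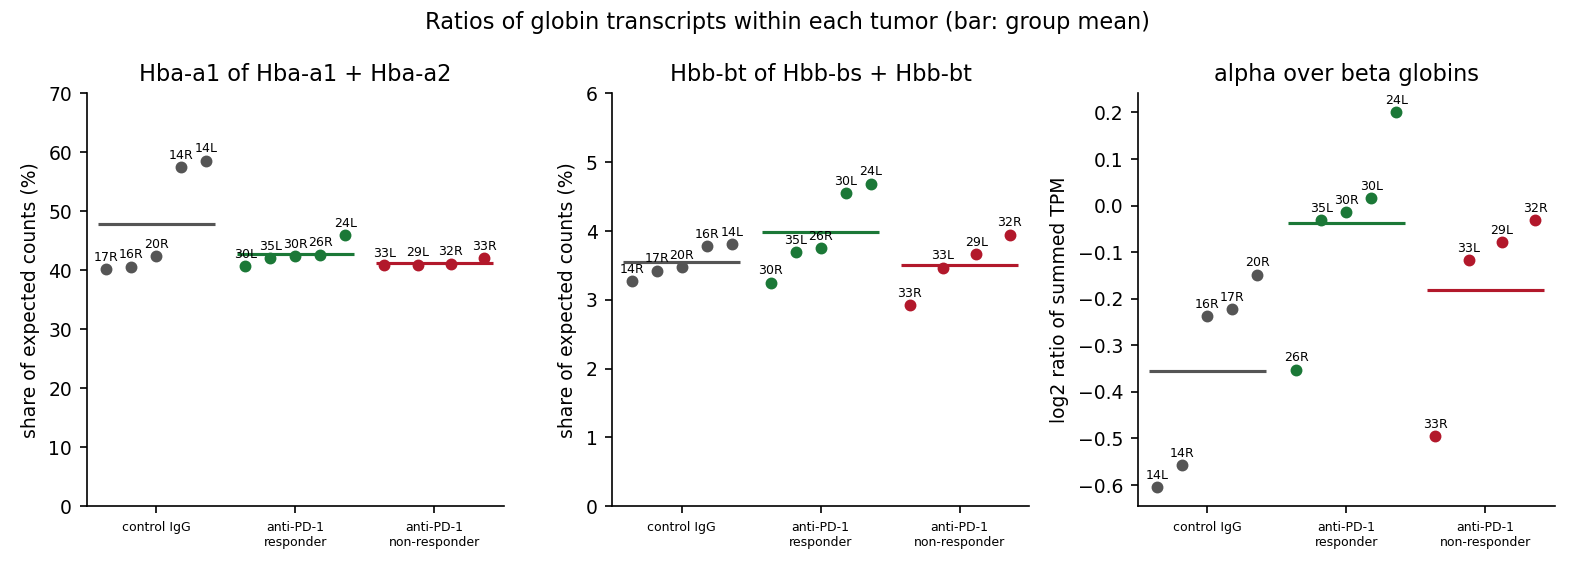
Share of Hba-a1 in alpha globin counts, share of Hbb-bt in beta globin counts (both in percent), and log2 ratio of alpha to beta globin TPM in each tumor by group, with bars at the group means. Tumors 14L and 14R stand at 58.6% and 57.5% in the first panel, above all other tumors.

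The left and right tumors of one mouse differed in their globin level. Summed globins were 70.2 and 433.4 CPM in 14L and 14R, 102.1 and 153.7 CPM in 30L and 30R, and 370.1 and 1032 CPM in 33L and 33R. The ratios of right to left were 6.17, 1.5, and 2.79. Between tumors of different mice in one group the larger over the smaller value had a median of 3.8 in control IgG tumors (9 pairs), 1.81 in responders (9 pairs), and 2.09 in non-responders (5 pairs), with a highest value of 26.8. Alas2 differed between the flanks by 4.10, 2.63, and 1.96-fold in the same mice, and Bpgm by 1.19, 1.14, and 1.21-fold. In each of these mice the right tumor was the higher, and with 3 mice no test was made.

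**Figure D5:**
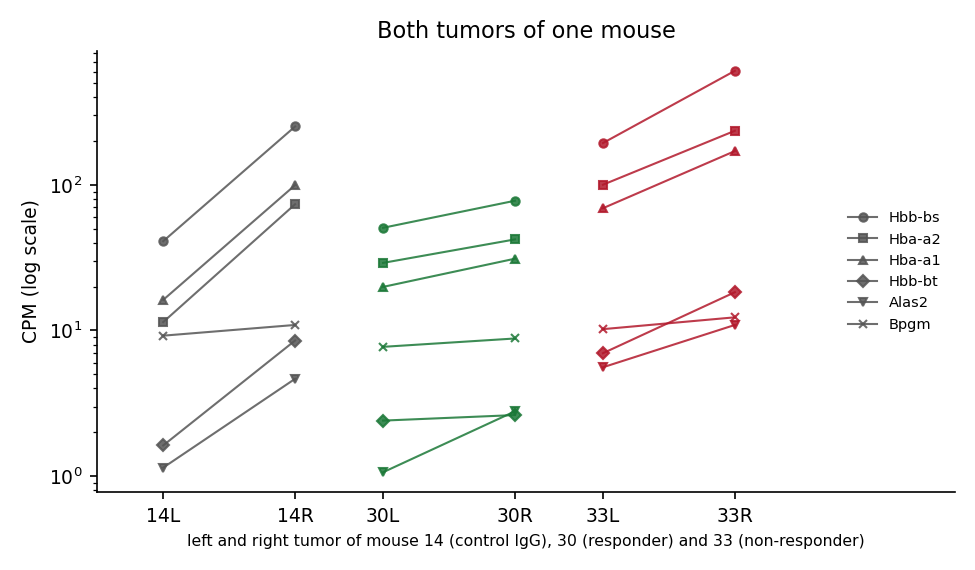
CPM (log axis) of 6 genes in the left and right tumor of the 3 mice with both tumors sequenced, lines joining the tumors of a mouse, colors as for the groups. The lines of the globins and Alas2 run up from left to right in each mouse, most steeply in mouse 14. That of Bpgm stays nearly level, as does that of Hbb-bt in mouse 30 (1.09-fold).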

How the data were processed

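RNA-seq was available for 14 CT26 tumors (5 control IgG, 5 responders, 4 non-responders). Groups were taken from the response label, and mouse and flank from the tumor number. The authors aligned paired-end reads of 150 bases with STAR (mm10) and estimated gene levels by RSEM. Expected counts, as deposited, are not normalized, and shared fragments are divided among paralogs. TPM values, as deposited, are length-scaled to the same total per tumor, and the effective lengths (another column, used for fragment length) and FPKM values that they deposited gave no expression result. Of 53801 gene identifiers, 53620 matched a symbol in GENCODE M21, on the same assembly as mm10.

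Counts were rounded and fitted with edgeR 4.0.16 in R 4.3.3 (TMM, filterByExpr with a minimum count of 10, quasi-likelihood test, Benjamini-Hochberg adjustment over 16287 genes, all 14 tumors, no covariates). Ratios were compared with exact permutation tests, which cannot go below p = 0.00794 for 5 against 5 tumors or 0.0159 for 5 against 4. Correlations used log2(CPM + 0.05) and 100000 permutations. The tests were tried on simulated counts. Alternatives were DESeq2 1.42.0, limma 3.58.1 (voom, with or without mouse as a random effect, and TPM), other normalizations, no filter, a length offset, summed paralogs, 1 tumor per mouse, the compared groups alone, the omission of each tumor, and, added after the data were seen, of 14R and 33R together. Sequences are from RefSeq (promoters) and GENCODE (transcripts). Counts and floors of 3 counts cover counting error only. The genes and lists were chosen with earlier results of these data known. The genes named are the 8, list genes that passed (up to 5 a list) or else the 3 most abundant of a list, and the 10 most correlated with the summed globins, and some genes that this rule or the lists held are not reported here. Other genes, such as Gata1 and Hmox1, were named after their values were seen.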

Additional observations from a re-analysis of the deposited data

Results flagged for a closer look

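Of 39 sets of values tested (the CPM of the 8 genes and the 5 ratios in each of the 3 groups), 6 held a tumor farther from the rest than Dixon's 95% limit. This limit is passed by about 1 in 20 sets of independent, normally distributed values. The sets here include skewed CPM, genes that vary together, and Epb42 at 0 to 4 counts. The 6 are therefore not set against that rate. Hbb-bt was at 40.1 CPM in control IgG tumor 16R, with 12.3 CPM in the next tumor. Slc4a1 was at 0.972 CPM in non-responder 32R, with 0.224 CPM in the next. Epb42 was at 0.0926 CPM in 32R and at 0.0436 CPM in responder 35L, against 0.0317 and 0 in the next tumors, on 4 and 2 counts. The log2 ratio of Alas2 to the globins was -8.99 in responder 30L, with -8.24 in the next tumor, and -8.95 in non-responder 33R, with -8.46 in the next. Tumors 16R and 32R had the highest summed globins of their groups, and 33R is the tumor whose counts fell most with gene length, and the part of this was not tested.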

How the results depend on the processing

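Of the 7 tested genes, 3 were called in responders against control IgG tumors, and the count was 6 with DESeq2, 0 with limma-voom, 0 with 1 tumor per mouse, 0 on log2(TPM + 1), 0 on log2(TPM + 0.1), 1 with paralogs summed (5 features), and 0 to 6 with one tumor left out. With mouse as a random effect (consensus correlation -0.282) it was 2, Slc4a1 and Bpgm, and the 3 globins were lost, with adjusted p of 0.0862 to 0.172 in limma. The median log2 fold change of the 4 globins between responders and non-responders stayed between -3.04 and -2.11 over all alternatives, the latter without 32R. On the TPM scale the median of all genes in that comparison shifted to 0.169 with a pseudocount of 1 and 0.235 with 0.1, from 0.01, and the globin median was -2.36 and -2.38. No member was called in non-responders against control IgG tumors under any alternative. There, leaving out single tumors gave log2 fold changes of -0.027 to 1.27 for Hba-a1, -0.091 to 1.38 for Hbb-bt, -0.11 to 1.28 for Alas2, -0.88 to 0.45 for Slc4a1, and -0.0066 to 0.18 for Bpgm, each negative without 32R and highest without 16R, or for Slc4a1 without 33L. Slc4a1 also turned with limma-voom (-0.15), with mouse as a random effect (-0.23), on log2(TPM + 1) (-0.022) and log2(TPM + 0.1) (-0.17), and without 14L (-0.02), and Bpgm on log2(TPM + 1) (-0.17) and log2(TPM + 0.1) (-0.19). Of the 39 erythroid list genes, 1 was called in responders against control IgG tumors, and the count was 2 with DESeq2, 2 with limma-voom, 3 with mouse as a random effect, 2 with 1 tumor per mouse, 3 on log2(TPM + 1), 2 on log2(TPM + 0.1), 3 with the length offset, 3 with the compared groups alone, 6 without 14R and 33R, and 1 to 2 with one tumor left out (2 without 14L or 26R). In responders against non-responders it was 2, and 1 with limma-voom, 4 with mouse as a random effect, 1 with 1 tumor per mouse, 1 with no filter, 6 and 6 on the TPM scales, 1 with the compared groups alone, 1 without 14R and 33R, and 0 to 3 with one tumor left out, where it was 0 without 32R and 1 without 24L, 29L, 30R, 33R, or 35L. The causes were not tested. No paired analysis was possible because the groups shared no replicate numbers. Depth limits Slc4a1 and Epb42, and the paralog division limits each single globin.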

Other observations

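Some genes ran opposite to the globins, and they are given after their values were seen. Siglech, a receptor of plasmacytoid dendritic cells, had the lowest Pearson's r with the summed globins over 14 tumors, at -0.914, followed by Eif2ak2, the kinase PKR, at -0.907, Tlr12 at -0.901, Mefv at -0.896, Rasgrp1 at -0.892, Pla2g2d at -0.891, Gm5970 at -0.885, Ap3m2 at -0.880, and Dtx3l and Slfn8, both at -0.873. No enrichment was tested. With the group means removed r was -0.838 for Siglech and -0.821 for Eif2ak2. Of 16287 genes 9 had r above 0.9, which include the 4 globins, Alas2, and Bpgm, and 3 had r below -0.9. The points share depth and group, and r is a description.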
